A study of Arabidopsis thaliana with 48 samples.

Results

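The Arabidopsis genes described here were the class A heat shock transcription factors (HSFs) outside the *HSFA1* group and besides *HSFA2* and *HSFA3*. They are all the remaining class A genes by locus name, and no measured value enters that rule: *HSFA4A* (AT4G18880), *HSFA4C* (AT5G45710), *HSFA5* (AT4G13980), *HSFA6A* (AT5G43840), *HSFA6B* (AT3G22830), *HSFA7A* (AT3G51910), *HSFA7B* (AT3G63350), *HSFA8* (AT1G67970) and *HSFA9* (AT5G54070). These are 9 of the 33323 genes counted and 9 of the 21 *HSF* genes listed for this comparison. The count filter passed 8 of them, among 21107 protein-coding genes tested, and left out *HSFA9*.

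HSFs bind DNA as trimers at heat shock elements (HSEs), inverted repeats of the unit nGAAn, and class A members carry C-terminal AHA motifs that activate transcription. The *HSFA1* factors start the response to heat stress (HS), and HSFA2 and HSFA3 act after it in HS memory. The factors treated here have roles partly outside heat: HSFA4A is a target of mitogen-activated protein kinases in salt and oxidative stress, HSFA5 binds and represses HSFA4 factors, HSFA6A and HSFA6B act in abscisic acid (ABA) and drought responses, HSFA8 moves to the nucleus under oxidative stress, and HSFA9 works in maturing seeds.

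RNA was sequenced from whole seedlings of 4 genotypes in the Col background: the *hsfa2 hsfa3-1* double mutant, the *hsfa2* and *hsfa3-1* single mutants, each represented by a single allele, and Col wild type. Seedlings 4 d old received an acclimation treatment (ACC) of 1 h at 37 °C, 90 min at 23 °C and 45 min at 44 °C, and were collected 4 h after it or on the next days, at 28 h or 52 h, beside seedlings that had received no HS. Each of the 16 groups had 3 replicates, 48 libraries in all. The same group without HS served as the reference for every time in its genotype. Its age and time of sampling are not given in the sources used here. Seedlings at 28 h and 52 h were also older than those at 4 h. A change against no HS therefore cannot be told apart from one of age or time of day. The methods call them biological replicates, and whether they were grown apart or on separate days is not given in the sources used here, so p-values measure the spread between these libraries. In whole seedlings, fewer cells of a type and less RNA per cell cannot be told apart.

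Libraries held between 27561060 and 33861060 read pairs on protein-coding genes (median 33377428), so that 3 counts corresponded to 0.0834 to 0.115 CPM (read pairs normalised to library size with TMM factors). No pair of replicates agreed within counting noise. *HSFA2*, the gene disrupted in *hsfa2*, had 58.3 to 65.7 CPM at 4 h in the double mutant and 43.5 to 72.4 CPM in *hsfa2*, against 941 to 1427 CPM in *hsfa3-1* and 1237 to 1589 CPM in Col. *HSFA3* had 205 to 221 CPM at 4 h in the double mutant and 156 to 172 CPM in *hsfa3-1*, against 1085 to 1694 CPM in *hsfa2* and 893 to 1129 CPM in Col. Without HS, the summed level of 7 small HSP genes was 25.7 CPM in *hsfa2* replicate 2 and 15.6 CPM in *hsfa3-1* replicate 2, against 2.04 to 4.69 CPM in the other 10 libraries. Results on low genes are therefore also given without these libraries where this changed a call.

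The upstream sequences of *HSFA7A*, *HSFA7B* and *HSFA4A* are shown because HSE-like letters set *HSFA7A* and *HSFA7B* apart from the other members, and because *HSFA4A* was the member whose level differed between the genotypes. Each run gives the 250 bases before the annotated start of the gene, read from RefSeq TAIR10.1, 5′ to 3′ on the strand of the gene: chr3:19264891-19265140 (+) for *HSFA7A*, chr3:23398986-23399235 (+) for *HSFA7B* and chr4:10349903-10350152 (−) for *HSFA4A*. Capitals mark matches to HSE patterns, GAANNTTC or TTCNNGAA (a pair of units) and 3 such units in a row (TTC, GAA and TTC or GAA, TTC and GAA, each separated by NN).
*HSFA7A*: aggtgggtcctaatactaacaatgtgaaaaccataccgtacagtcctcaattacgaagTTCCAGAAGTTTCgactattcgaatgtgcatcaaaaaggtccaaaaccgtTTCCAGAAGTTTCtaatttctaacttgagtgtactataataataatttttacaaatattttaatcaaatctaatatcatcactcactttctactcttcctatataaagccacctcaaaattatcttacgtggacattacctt
*HSFA7B*: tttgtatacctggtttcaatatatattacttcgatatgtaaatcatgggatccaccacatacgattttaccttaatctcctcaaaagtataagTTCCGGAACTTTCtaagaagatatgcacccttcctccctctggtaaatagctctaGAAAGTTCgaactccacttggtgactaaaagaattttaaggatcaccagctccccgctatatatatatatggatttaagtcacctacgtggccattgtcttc
*HSFA4A*: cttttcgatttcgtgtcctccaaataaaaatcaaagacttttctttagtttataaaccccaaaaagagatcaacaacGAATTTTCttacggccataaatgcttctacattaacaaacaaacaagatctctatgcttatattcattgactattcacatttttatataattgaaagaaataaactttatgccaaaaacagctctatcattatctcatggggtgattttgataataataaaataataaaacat

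Motifs were searched on both strands from 250 bases before to 50 bases after the start in 27443 promoters. The 3-unit patterns are reverse complements of each other, and each contains the 2-unit patterns. A 3-unit HSE was found in 132 promoters (0.481%), and those of *HSFA7A* and *HSFA7B* were among them. The promoter of *HSFA7A* held the same 13 letters, TTCCAGAAGTTTC, at 2 places, 192 and 142 bases before the start. That of *HSFA7B* held TTCCGGAACTTTC 157 bases before the start and a further 2-unit match, GAAAGTTC, 102 bases before it. Either 2-unit pattern occurred in 19.3% of promoters. Among the other members, *HSFA4A* had 1 such match, GAATTTTC, 173 bases before the start, and *HSFA8* had GAAATTTC 26 bases after it, within the transcribed part. ACGTG, the core of ABA-responsive elements, stood 16 bases before the start of *HSFA7A* and 17 bases before that of *HSFA7B*, and occurred in 26.7% of promoters. The dehydration-responsive patterns GCCGAC and ACCGAC occurred in 8.72% of promoters, and *HSFA9* held 1 of them, ACCGAC, 138 bases before its start. No pattern searched was found in the windows of *HSFA4C*, *HSFA5*, *HSFA6A* or *HSFA6B*. A match describes letters and does not show that a factor binds there.

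**Figure D1:**
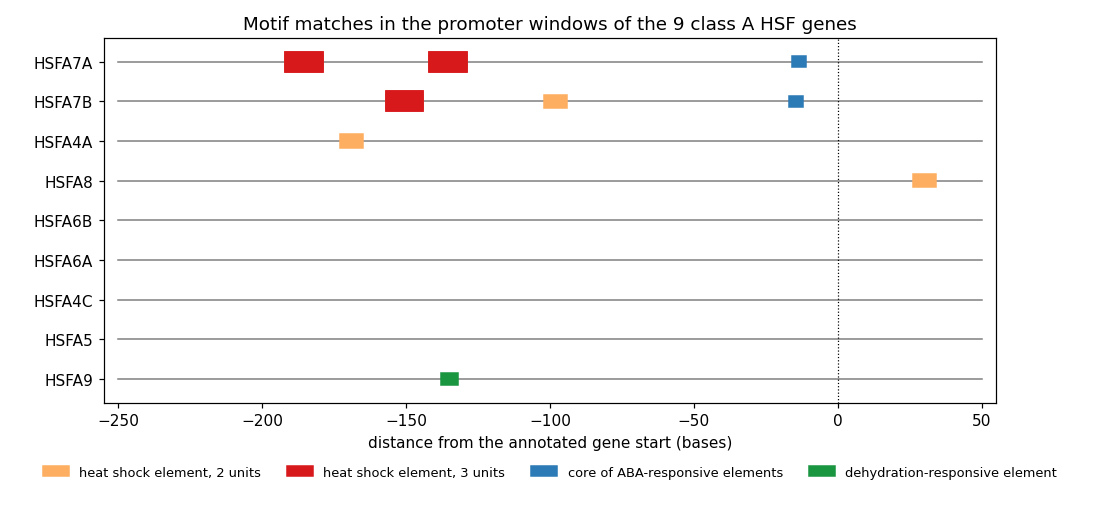
Pattern matches in the promoters of the 9 class A factors, by distance in bases from the annotated start (x axis), with the marker showing the kind of pattern. *HSFA7A* carried 2 matches to the 3-unit HSE and *HSFA7B* carried 1, and 4 members had no match to any pattern.

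HSFA7A and HSFA7B are close relatives, with 64.2% identical residues over their aligned proteins, and HSFA4A and HSFA4C shared 71.5% over 337 aligned residues. No pair of members had identical coding stretches longer than 26 bases, far shorter than the reads of 150 bases, so reads could be told apart between paralogs. *HSFA9* is the exception to clean counting: 225 bases of its exons lie opposite a small nucleolar RNA gene, AT5G54075, and the strand setting of the counts is not given in the sources used here.

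The first comparison asked which of these factors differed after ACC from no HS. At 4 h, *HSFA7A*, *HSFA7B*, *HSFA6B* and *HSFA8* rose in every genotype, and *HSFA4A* rose in Col. *HSFA7B* had the largest change, from levels near the counting floor. Called genes (more than 2-fold, adjusted p below 0.05) numbered 4 of 8 members in the double mutant, 4 in *hsfa2*, 4 in *hsfa3-1* and 5 in Col, all higher, where 15.2%, 15.4%, 14.8% and 16.9% of all tested genes were called higher in these genotypes. The median log2 fold change of the 8 members was 1.45, 1.45, 1.29 and 1.65 in the same order, against −0.05, −0.04, −0.06 and −0.05 for all tested genes. No member was called lower at any time after ACC than without HS, where 8.17% of all tests over the 12 contrasts were called lower.

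**Figure D2:**
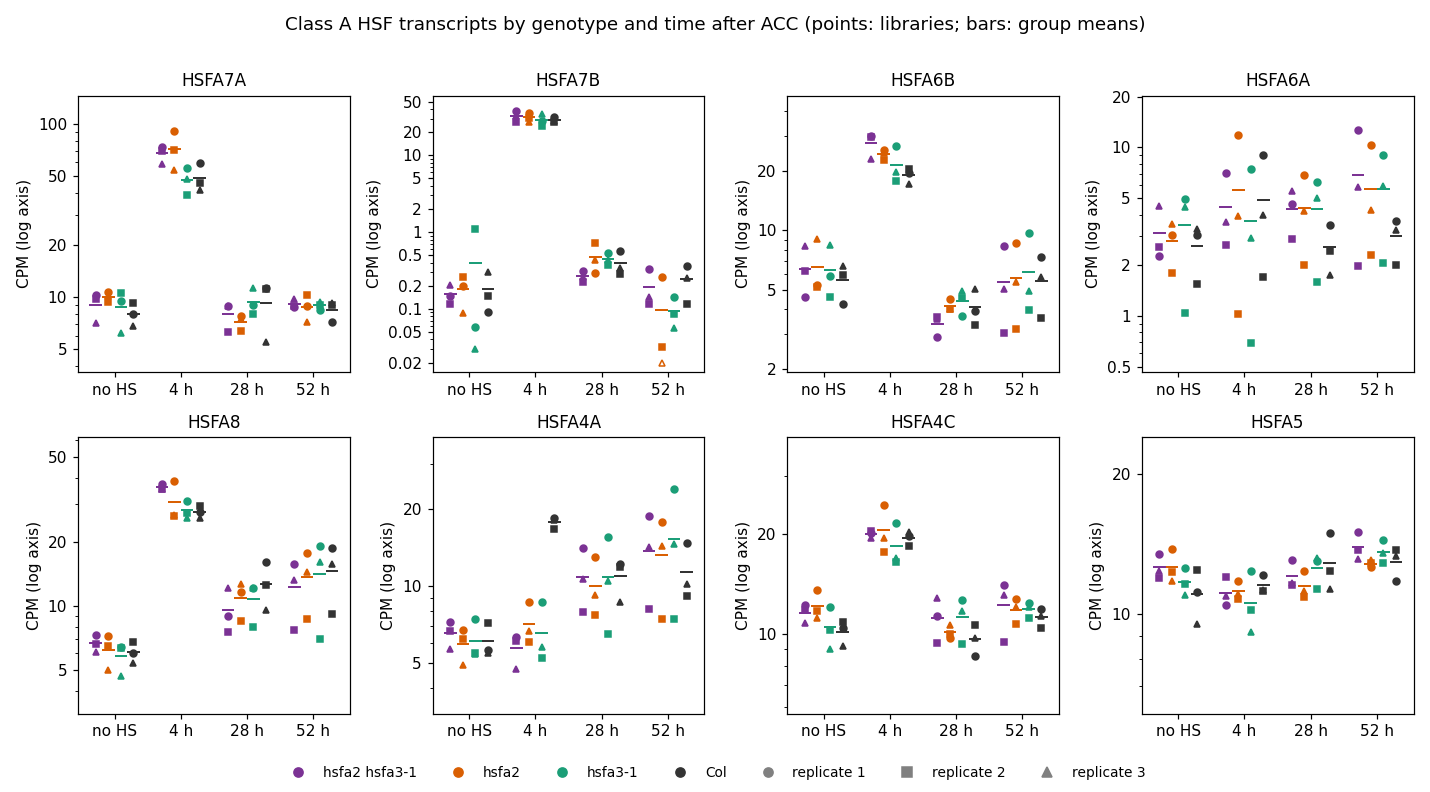
CPM (log axis) of the 8 class A factors that passed the count filter, by time (x axis; no HS, then 4 h, 28 h or 52 h from the end of ACC). Each point is a library, and a short bar marks the mean of each group. *HSFA7A*, *HSFA7B*, *HSFA6B* and *HSFA8* peaked at 4 h in all 4 genotypes, while *HSFA4A* peaked at 4 h in Col alone.

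*HSFA7B*, a factor known from salt stress responses, went almost unread without HS. At 4 h it had 37.4, 27.3 and 32.6 CPM in the double mutant, against 0.146, 0.116 and 0.207 CPM without HS. In *hsfa2* it had 35.6, 30.7 and 27.0 CPM at 4 h, against 0.200, 0.261 and 0.0898 CPM without HS. In *hsfa3-1* it had 28.1, 24.3 and 34.7 CPM at 4 h, against 0.0581, 1.10 and 0.0297 CPM without HS. No library at 4 h overlapped one without HS, and the value of 1.10 CPM stood apart from the other libraries without HS. Col had 31.3, 27.5 and 28.2 CPM at 4 h, against 0.0925, 0.149 and 0.306 CPM without HS. The log2 fold change at 4 h was 7.66 ± 0.53 (SE) in the double mutant, 7.37 ± 0.52 in *hsfa2*, 6.16 ± 0.47 in *hsfa3-1* and 7.28 ± 0.52 in Col, with edgeR adjusted p of 5.1e-14 or less in each. In linear terms this was 202-fold, 166-fold, 71.5-fold and 156-fold in the same order, and *HSFA7B* held rank 45, 51, 96 and 66 among the 21107 tested genes ordered by fold change. The base of these ratios is small, 94 read pairs summed over the 12 libraries without HS, of which 39 came from *hsfa3-1* replicate 2. Without that library the fitted value at 4 h in *hsfa3-1* was 9.24, on a base of only 3 read pairs.

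*HSFA7B* was back near its floor by the next day. At 28 h all 12 libraries lay between 0.227 and 0.715 CPM, and at 52 h between 0 and 0.360 CPM. At 28 h against 4 h the log2 fold change was −6.90 ± 0.49 in the double mutant, −6.02 ± 0.46 in *hsfa2*, −6.02 ± 0.46 in *hsfa3-1* and −6.20 ± 0.47 in Col (adjusted p of 6.9e-14 or less, edgeR). At 28 h every library of the double mutant and of *hsfa2* was above the libraries without HS of its genotype, but no change against no HS was called (log2 fold change 0.76, 1.36, 0.14 and 1.09 in the double mutant, *hsfa2*, *hsfa3-1* and Col). When *hsfa3-1* replicate 2 without HS was left out, the 28 h value in *hsfa3-1* was 3.22 and was called (edgeR adjusted p = 3.3e-03, and 3.3e-03 to 0.95 over all alternatives run for it). That in *hsfa2* was then also called, at 1.36 (edgeR adjusted p = 0.045, and 0.045 to 0.51 over its alternatives).

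*HSFA7A*, known to be induced by misfolded protein in the cytosol, started from a level well above the floor. At 4 h it had 73.9, 70.2 and 59.1 CPM in the double mutant, against 10.2, 9.71 and 7.08 CPM without HS. In *hsfa2* it had 91.2, 70.7 and 54.2 CPM at 4 h and in *hsfa3-1* 56.0, 39.0 and 47.9 CPM, against 9.40 to 10.7 and 6.17 to 10.5 CPM without HS in these mutants. In Col it had 59.4, 45.6 and 41.4 CPM at 4 h, against 7.99, 9.25 and 6.79 CPM without HS. All libraries at 4 h were above all libraries without HS. The log2 fold change was 2.91, 2.84, 2.45 and 2.61 in the double mutant, *hsfa2*, *hsfa3-1* and Col (SE 0.22 each; adjusted p of 4.4e-12 or less, edgeR). It then fell by 3.08, 3.32, 2.34 and 2.39 on the log2 scale between 4 h and 28 h in these genotypes, and at 28 h and 52 h no difference from no HS was called.

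*HSFA6B*, an activator in ABA-dependent stress tolerance, showed the same single peak at a smaller size. At 4 h it had 29.9, 29.5 and 22.9 CPM in the double mutant, against 4.597, 6.28 and 8.32 CPM without HS. Col had 19.5, 20.4 and 17.1 CPM at 4 h, against 4.26, 5.94 and 6.60 CPM without HS. The groups did not overlap, and *hsfa2* with 25.4, 22.7 and 24.6 CPM and *hsfa3-1* with 26.7, 17.8 and 19.6 CPM at 4 h were likewise above their libraries without HS. The log2 fold change was 2.10, 1.89, 1.75 and 1.76 in the double mutant, *hsfa2*, *hsfa3-1* and Col (SE 0.32 each; adjusted p of 1.1e-05 or less, edgeR). At 28 h the double mutant had 2.89, 3.64 and 3.59 CPM, all below its libraries without HS, with a log2 fold change of −0.92 that passed the p threshold (adjusted p = 0.047, edgeR) but not the fold threshold. Without replicate 1 it was −1.02 and was called. The drop was not confined to the double mutant. All *hsfa2* libraries at 28 h also lay below those of *hsfa2* without HS. In *hsfa3-1* and Col the libraries overlapped, and the mean at 28 h was below that without HS. No change of *HSFA6B* at 28 h against no HS was called in *hsfa2*, *hsfa3-1* or Col with all libraries. The share of all genes whose libraries separate downwards in this way is not given here.

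*HSFA8* peaked at 4 h like the others, but its libraries stayed above those without HS. At 4 h it had 37.4, 35.4 and 35.3 CPM in the double mutant, against 7.35, 6.66 and 6.07 CPM without HS. Col had 27.6, 29.3 and 25.9 CPM at 4 h, against 6.01, 6.78 and 5.38 CPM without HS. The log2 fold change was 2.43, 2.29, 2.27 and 2.19 in the double mutant, *hsfa2*, *hsfa3-1* and Col (SE 0.29 each; adjusted p of 3.6e-08 or less, edgeR). At all 3 times and in all 4 genotypes, every library after ACC was above every library without HS of the same genotype. The same libraries without HS were used each time, and the share of all genes that separate in this way is not given here. *HSFA4A* likewise lay above its libraries without HS at 28 h and 52 h in the double mutant, *hsfa2* and Col.

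At 28 h the call on *HSFA8* was made in Col alone, with 16.0, 12.5 and 9.63 CPM and a log2 fold change of 1.07 ± 0.29 (adjusted p = 3.9e-03, edgeR). This was the only member called at 28 h, where 2.27%, 2.14%, 2.53% and 4.72% of tested genes were called higher in the double mutant, *hsfa2*, *hsfa3-1* and Col. The mutants gave 0.52, 0.81 and 0.90 in the same order, and the difference of a mutant from Col at 28 h was not called for any member. At 52 h *HSFA8* had 15.8, 7.75 and 13.2 CPM in the double mutant, 17.7, 8.74 and 14.4 CPM in *hsfa2*, 19.2, 7.04 and 16.1 CPM in *hsfa3-1* and 18.8, 9.16 and 15.7 CPM in Col. Replicate 2 was the lowest in each genotype. It was called in *hsfa2* (1.12), *hsfa3-1* (1.28) and Col (1.26), with adjusted p of 9.4e-03 or less (edgeR), and was not called in the double mutant (0.87, adjusted p = 0.045, below the fold threshold). At 52 h 1 member was called in the double mutant, 2 in *hsfa2*, 2 in *hsfa3-1* and 1 in Col, where 1.65%, 1.79%, 1.75% and 2.16% of tested genes were called higher. The calls on *HSFA8* at 52 h were lost without replicate 1 (adjusted p 0.064 to 0.092) and without replicate 3 (0.16 to 0.32), and that at 28 h in Col likewise (0.076 and 0.051). With only the compared groups in the fit, that in *hsfa3-1* at 52 h was not called either (1.28, adjusted p = 0.11). Without replicate 2 *HSFA8* was also called in the double mutant at 52 h (1.13) and in *hsfa3-1* at 28 h (1.16).

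*HSFA4C*, the close relative of *HSFA4A*, was less than 2-fold higher at 4 h than without HS. At 4 h it had 20.2, 20.4 and 19.5 CPM in the double mutant, against 12.2, 11.7 and 10.7 CPM without HS. Col had 19.7, 18.4 and 20.3 CPM at 4 h, against 10.4, 10.8 and 9.14 CPM without HS, and in both genotypes the groups did not overlap. The log2 fold change was 0.79, 0.76, 0.82 and 0.94 in the double mutant, *hsfa2*, *hsfa3-1* and Col (SE 0.14 each; adjusted p of 7.8e-06 or less, edgeR), below the fold threshold in each. Between 4 h and 28 h it fell by 1.03 on the log2 scale in *hsfa2* and by 1.01 in Col, which were called, and gave −0.85 in the double mutant and −0.71 in *hsfa3-1*, which were not. Both values lay at the threshold: neither was called with library totals in place of TMM (−0.84 in *hsfa2*, −0.73 in Col) or without replicate 1 (−0.86 and −0.94), nor was that in Col without replicate 3 (−0.99). Without replicate 2 the rise at 4 h in Col was 1.08 and was called.

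*HSFA5*, the repressor of HSFA4 factors, was the flattest member. Its 48 libraries lay between 9.17 and 15.0 CPM, the means of the 16 groups spanned 0.40 on the log2 scale, and no comparison was called. *HSFA6A*, a target of ABA signalling, ranged from 0.696 to 12.7 CPM, and no comparison was called with all libraries. Without replicate 2 its change between 4 h and 28 h in Col was called (−1.36, edgeR adjusted p = 0.046, and 0.046 to 0.65 over its alternatives). Its spread was between replicates: at 52 h it had 12.7, 1.98 and 5.79 CPM in the double mutant, against 3.66, 2.02 and 3.22 CPM in Col, and replicate 2 was the lowest in 14 of the 16 groups. Its log2 fold change at 4 h was 0.51, 1.01, 0.08 and 0.90 in the double mutant, *hsfa2*, *hsfa3-1* and Col, with an SE of 0.76 in each.

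*HSFA9*, the seed factor, was almost unread in these seedlings. It had 16 read pairs over the 48 libraries, above 0 in 7 of them, and 15 of the 16 pairs came from libraries at 4 h. The highest library, *hsfa3-1* replicate 2 at 4 h, had 6 pairs or 0.182 CPM. Given the overlap with the small nucleolar RNA gene, these few pairs cannot be assigned to *HSFA9* with certainty.

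Between 4 h and 28 h, 4 members in the double mutant, 5 in *hsfa2*, 4 in *hsfa3-1* and 5 in Col were called lower, where 13.6%, 14.3%, 13.9% and 14.7% of tested genes were called lower. In each genotype these were the 4 members that had risen at 4 h in all genotypes, with *HSFA4C* added in *hsfa2* and Col. *HSFA8* in Col, at −1.12, was not called with library totals (−0.85) or without replicate 3 (−0.9996). Between 28 h and 52 h no member was called with edgeR or DESeq2, where 0.933%, 0.962%, 1.26% and 2.40% of tested genes changed in the double mutant, *hsfa2*, *hsfa3-1* and Col. With edgeR 3 of these 32 tests passed an unadjusted p of 0.05: *HSFA6B* in the double mutant, and *HSFA7B* in *hsfa2* and in *hsfa3-1*. Without *hsfa3-1* replicate 2 without HS, *HSFA7B* was called lower at 52 h in *hsfa2* (−2.22, adjusted p = 0.017, and 0.017 to 0.62 over its alternatives) and in *hsfa3-1* (−2.17, adjusted p = 0.017, and 0.017 to 0.44 over its alternatives).

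Levels of different genes were compared per kilobase of exon. Without HS in Col, *HSFA7A* was the highest with 6.91 ± 1.06 CPM per kb (SD, n = 3), followed by *HSFA5* with 5.84, *HSFA4C* with 4.601, *HSFA6B* with 3.55, *HSFA8* with 3.52, *HSFA4A* with 2.60, *HSFA6A* with 2.48 and *HSFA7B* with 0.169. At 4 h in Col the order was *HSFA7A* (42.1), *HSFA7B* (26.8), *HSFA8* (16.1), *HSFA6B* (12.1), *HSFA4C* (8.84), *HSFA4A* (7.57), *HSFA5* (6.10) and *HSFA6A* (4.62). *HSFA7B* thus stood last without HS and next to the top at 4 h, and only *HSFA7A* was above it. In the double mutant at 4 h the first 5 places were the same, with 58.4 CPM per kb for *HSFA7A*, 21.0 for *HSFA8* and 9.11 for *HSFA4C*, and *HSFA4A* came last with 2.44. At 52 h in Col *HSFA8* was the highest (8.46), ahead of *HSFA7A* (7.32), *HSFA5* (6.85), *HSFA4C* (5.10), *HSFA4A* (4.86), *HSFA6B* (3.54), *HSFA6A* (2.81) and *HSFA7B* (0.226). Neighbours whose means lay within their summed SDs of each other were, without HS, *HSFA7A* and *HSFA5*, *HSFA4C* and *HSFA6B*, *HSFA6B* and *HSFA8*, and *HSFA4A* and *HSFA6A*. At 4 h they were only *HSFA5* and *HSFA6A*, and at 52 h all neighbours but *HSFA5* and *HSFA4C*, and *HSFA6A* and *HSFA7B*. With coding length in place of exon length, *HSFA4C* moved up, to place 2 without HS in Col.

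**Figure D3:**
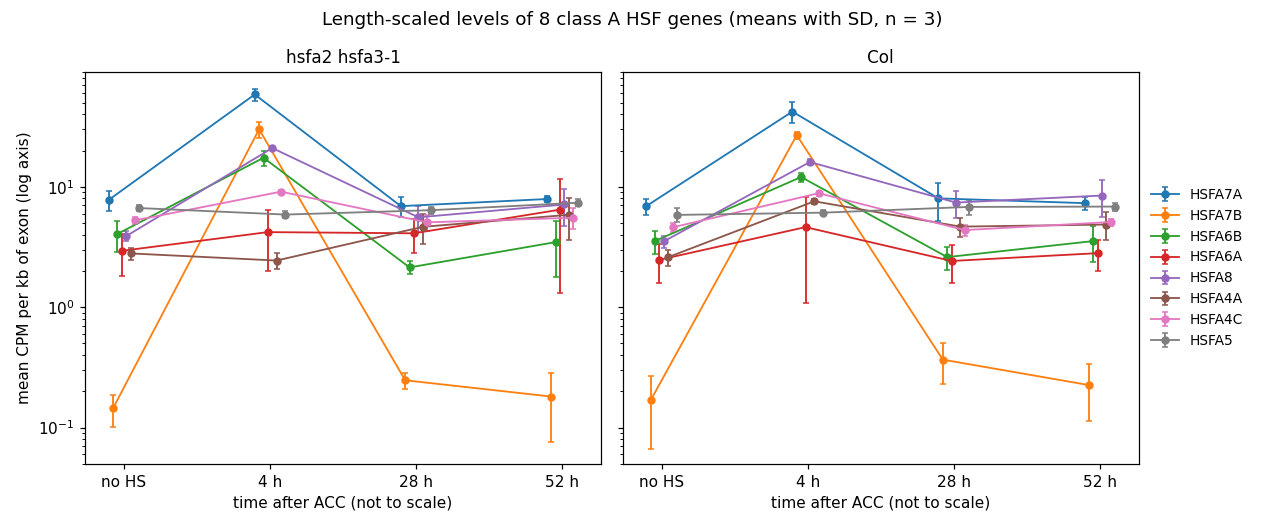
Mean CPM per kb of exon (log axis) of the 8 factors that passed the count filter in the double mutant and in Col at each time, no HS included; bars show the SD of 3 replicates. *HSFA7B* moved from the lowest place without HS to the next to highest at 4 h in both genotypes, and *HSFA4A* was the lowest at 4 h in the double mutant, at 2.44 CPM per kb.

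The second comparison asked whether the loss of HSFA2 or HSFA3 altered these factors. At 4 h *HSFA4A* was lower than in Col in each of the 3 mutants, and it was the only member called (adjusted p below 0.05) in any comparison with Col. At 4 h it had 6.33, 6.09 and 4.77 CPM in the double mutant, 8.68, 6.07 and 6.71 CPM in *hsfa2* and 8.70, 5.23 and 5.81 CPM in *hsfa3-1*, against 18.4, 16.7 and 18.22 CPM in Col. The mutants overlapped with each other and none reached the lowest Col library. Against Col the log2 fold change was −1.63 ± 0.34 in the double mutant (95% interval −2.32 to −0.95, adjusted p = 6.4e-04), −1.31 ± 0.33 in *hsfa2* (−1.99 to −0.64, adjusted p = 9.0e-03) and −1.43 ± 0.33 in *hsfa3-1* (−2.11 to −0.76, adjusted p = 0.011; edgeR). Thus 1 of 8 members was lower in each mutant, where 6.88%, 5.05% and 2.04% of tested genes were lower in the double mutant, *hsfa2* and *hsfa3-1*. Without replicate 3 none of the 3 calls was kept, with values of −1.499, −1.25 and −1.34 and adjusted p of 0.165, 0.441 and 0.768, whereas leaving out replicate 1 or 2 kept all 3 (adjusted p over all alternatives 2.9e-06 to 0.17 in the double mutant, 9.2e-05 to 0.44 in *hsfa2* and 8.4e-05 to 0.77 in *hsfa3-1*).

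**Figure D4:**
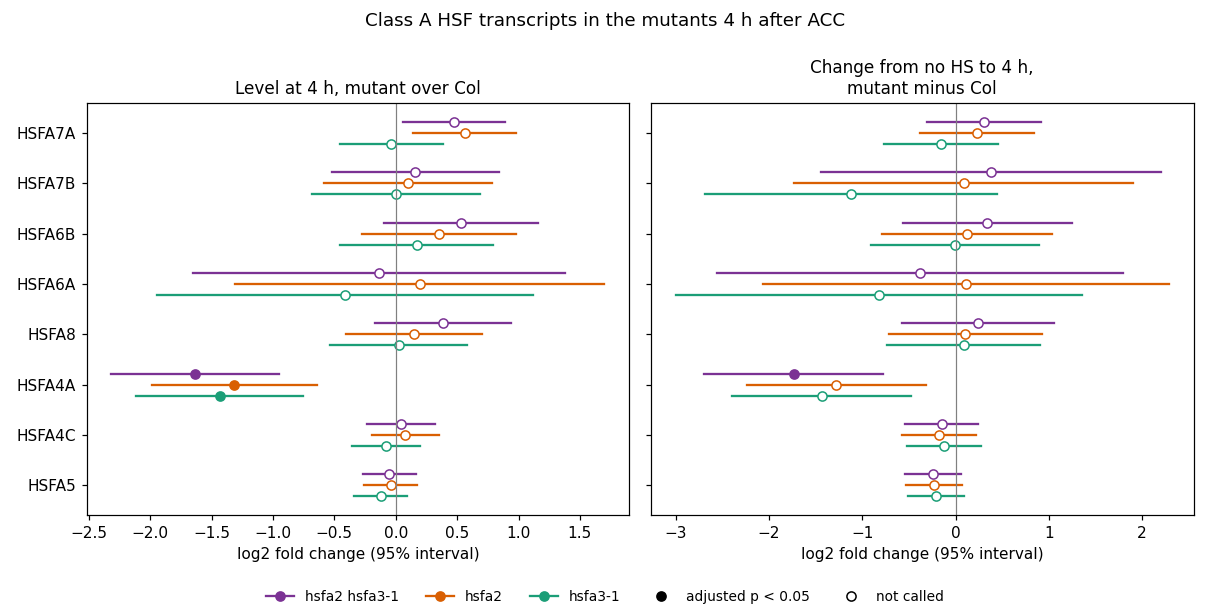
Log2 fold change of each class A factor that passed the count filter, with 95% intervals from the edgeR fit. The left panel shows the double mutant, *hsfa2* and *hsfa3-1* against Col at 4 h. The right panel shows the change from no HS to 4 h in each mutant minus that in Col. In the left panel *HSFA4A* lay at −1.63, −1.31 and −1.43 with intervals below 0, and the other 7 factors were not called. In the right panel only *HSFA4A* in the double mutant was called.

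Without HS *HSFA4A* did not separate the genotypes, with 7.26, 6.72 and 5.71 CPM in the double mutant, 6.77, 6.21 and 4.91 CPM in *hsfa2*, 7.47, 5.48 and 5.43 CPM in *hsfa3-1* and 5.64, 7.19 and 5.50 CPM in Col. At 4 h against no HS, *HSFA4A* was 2.91-fold higher in Col (log2 fold change 1.54 ± 0.33, adjusted p = 1.1e-04, edgeR), while the double mutant gave −0.20 ± 0.34, *hsfa2* 0.26 ± 0.34 and *hsfa3-1* 0.10 ± 0.34. The difference between the change in the double mutant and that in Col was −1.74 ± 0.47 and was called (adjusted p = 0.023, edgeR). The same difference was −1.28 in *hsfa2* (adjusted p = 0.23) and −1.44 in *hsfa3-1* (adjusted p = 0.29), which were not called. With the replicate number as a block both were called (−1.28, adjusted p = 0.022 in *hsfa2*, and −1.43, adjusted p = 0.025 in *hsfa3-1*), and with only the compared groups in the fit that in *hsfa2* was called (−1.28, adjusted p = 0.012). Over all alternatives their adjusted p ranged over 0.012 to 1 in *hsfa2* and 0.025 to 0.9999 in *hsfa3-1*, so whether the change differs from Col in the single mutants depends on the fit. Without the block 1, 0 and 0 members had a lower change at 4 h than in Col in the double mutant, *hsfa2* and *hsfa3-1*. In that fit 3.92%, 2.53% and 0.441% of tested genes had a lower change. With the block 1, 1 and 1 members did, and the share of all genes in the blocked fit is not given here. The call in the double mutant was lost without replicate 1 (−1.64, adjusted p = 0.054) and without replicate 3 (−1.62, adjusted p = 0.70), and its adjusted p ranged over 3.7e-04 to 0.70 in all its alternatives.

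Over the times sampled, the mean level of *HSFA4A* was highest at 52 h in each of the 3 mutants and at 4 h in Col. At 28 h it had 14.1, 7.96 and 10.7 CPM in the double mutant, 13.04, 7.74 and 9.25 CPM in *hsfa2* and 15.5, 6.54 and 10.5 CPM in *hsfa3-1*, against 12.3, 11.9 and 8.67 CPM in Col. At 52 h it had 18.8, 8.19 and 14.3 CPM in the double mutant, 17.9, 7.47 and 14.4 CPM in *hsfa2* and 23.9, 7.44 and 14.6 CPM in *hsfa3-1*, against 14.8, 9.19 and 10.2 CPM in Col. The genotypes overlapped at both times, with replicate 2 the lowest in each group at 52 h. Against no HS the log2 fold change at 52 h was 1.06 in the double mutant (adjusted p = 0.033), 1.15 in *hsfa2* (adjusted p = 0.021) and 1.32 in *hsfa3-1* (adjusted p = 9.7e-03), all called with edgeR, and 0.90 in Col (adjusted p = 0.062), which was not. The difference between a mutant and Col at 52 h was not called, and the calls in the mutants were lost without replicate 1 (edgeR adjusted p 0.069 to 0.12) and without replicate 3 (0.33 to 0.45). With only the compared groups in the fit, *HSFA4A* was not called at 52 h in the double mutant (1.06, adjusted p = 0.056) or in *hsfa3-1* (1.32, adjusted p = 0.13). The call in *hsfa3-1* was also lost without its replicate 2 library without HS (0.055), and that in *hsfa2* when the *hsfa2* library of that number was left out with it (0.06). Without replicate 2 at all times, *HSFA4A* was called in Col at 52 h (1.18) and in *hsfa3-1* at 28 h (1.04). Between 4 h and 28 h the double mutant gave 0.93 (adjusted p = 0.015, below the fold threshold, but 1.13 and called without replicate 2) and Col −0.70 (adjusted p = 0.056, edgeR).

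No other member was called against Col, and no member was called higher at 4 h, where 1.08% of tests over all genes were. *HSFA7A*, with the values at 4 h given above, had a log2 fold change against Col of 0.47 ± 0.21 in the double mutant (adjusted p = 0.18) and 0.56 ± 0.21 in *hsfa2* (adjusted p = 0.13; edgeR), which passed 0.05 only before adjustment. Without HS its *hsfa2* libraries, at 9.40 to 10.7 CPM, already lay above those of Col, at 6.79 to 9.25 CPM. The change of *HSFA7A* from no HS to 4 h was not called as different from Col in any mutant. *HSFA6B* was above Col in every library of the double mutant and of *hsfa2* at 4 h, but its difference of 0.53 ± 0.31 in the double mutant was not called (adjusted p = 0.39, edgeR). *HSFA8* was above Col in every library of the double mutant at 4 h, and was not called either. Such separation was not confined to 4 h: without HS, *HSFA4C* in *hsfa2* also lay above Col in every library and was not called. The share of all genes that separate from Col in this way is not given here, so nothing is read from it. Over no HS, 28 h and 52 h, 0 of 72 tests of a mutant against Col were called, against 1.66% of tests over all genes, and 0 passed an unadjusted p of 0.05 (edgeR). For the difference in change at 28 h and 52 h, 0 of 48 tests were called, against 0.253% over all genes, and 3 passed an unadjusted p of 0.05. Between the double mutant and either single mutant, 0 of 64 tests were called, against 0.403% over all genes, and 1 passed an unadjusted p of 0.05, that of *HSFA7A* against *hsfa3-1* at 4 h. DESeq2 gave the same calls as edgeR for every member and contrast.

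Some members varied together over the replicate numbers. At 52 h, replicate 1 was the highest and replicate 2 the lowest in 4 of 4 genotypes for *HSFA4A*, *HSFA4C*, *HSFA6A*, *HSFA6B* and *HSFA8*. The summed level of the ABA and dehydration list moved in the same order: at 52 h replicates 1, 2 and 3 had 787, 257 and 444 CPM in the double mutant, 802, 281 and 354 CPM in *hsfa2*, 696, 274 and 473 CPM in *hsfa3-1* and 486, 289 and 370 CPM in Col. The summed level of the HSP and other HSF target list was also highest in replicate 1 in each genotype at 52 h. Replicates 1, 2 and 3 had 165, 98.6 and 98.3 CPM in the double mutant and 247, 133 and 134 CPM in *hsfa2*. In *hsfa3-1* they had 446, 248 and 280 CPM, and in Col 1046, 650 and 756 CPM. What these libraries share beyond the number is not given in the sources used here. The replicate block changed no call at 52 h, and those lost without replicate 1 or 3 are given above. The part of the genes of either list in the values at 52 h was not tested.

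Across the means of the 16 groups, *HSFA4C* and *HSFA7A* gave a Pearson r of 0.98, *HSFA4C* and *HSFA6B* 0.96, and *HSFA4A* and *HSFA7A* −0.19. The Spearman rank correlations of these pairs were 0.86, 0.79 and −0.11. *HSFA6B* and *HSFA7B*, which both peaked at 4 h, gave a Pearson r of 0.92 but a Spearman correlation of 0.29. A high Pearson r between genes that peak at 4 h therefore need not mean like levels at the other times. The points share genotypes and times, and the correlations are given as a description. For members whose group means spanned at least 2 on the log2 scale, the tested genes with the most similar profile were, for *HSFA7B*, AT1G54050 (r = 0.996), an HSP20-like chaperone gene, *UGT89B1* (0.996) and AT3G11850 (0.995). For *HSFA7A* they were AT4G25610 (0.996), AT5G50170 (0.996) and AT4G35240 (0.995). For *HSFA6B* they were *FC2* (0.994), which encodes a LAMMER-type protein kinase, AT4G35500 (0.993) and *WIP3* (0.993). For *HSFA8* the likeness was weaker, with AT3G55760 (0.984), *pEARLI4* (0.983) and AT5G20050 (0.981).

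Beside these factors, 8 of 12 tested genes among the other HSFs and their binding protein HSBP rose at 4 h in Col, with a median log2 fold change of 1.55 for the list against −0.05 for all tested genes, and 16.9% of all tested genes were called higher. The list was led by *HSFA2* (log2 fold change 9.995), *HSFA3* (7.33) and *HSFA1E* (4.83), the last an *HSFA1* gene by name. The paper names other *HSFA1* isoforms as acting in the HS response, and lists *HSFA1E* among genes whose enhanced re-induction required *HSFA2*. Against Col at 4 h, 6 of the 12 were lower in the double mutant, among them *HSFA1E* (−2.01), 4 in *hsfa2*, among them *HSFA1E* (−1.41), and 5 in *hsfa3-1*, among them *HSFB2A* (−0.88), where 6.88%, 5.05% and 2.04% of tested genes were lower in these mutants. The disrupted genes themselves are among these counts. Of 13 HSP and other HSF target genes all rose at 4 h in Col (median 12.14), led by *HSP21* (15.70), a chloroplast chaperone, with *HSP17.6C* (14) and *HSP22* (13.57). In the ABA and dehydration list 6 of 12 rose at 4 h in Col (median 1.13), led by *DREB2A* (4.98), an activator of drought and heat genes, *RD29A* (4.10) and *RD29B* (4.04). In the oxidative stress list (median 0.78) 3 of 10 rose, *APX2* (13.23), which removes hydrogen peroxide, *ZAT12* (5.23) and *ZAT10* (4.09), and *RBOHD* fell (−1.36). In the seed maturation list (median −0.24) 2 of 7 rose, *DOG1* (1.70) and *EM6* (1.62), a count from which, beside 16.9% of all tested genes, nothing is read about the list. Of 5 marker genes of shoot, root and dry seed (median −0.94) none rose and 2 fell, the root gene *PIN2* (−1.85) and the leaf gene *RBCS1A* (−1.06). Among all tested genes 19.8% were called lower at 4 h in Col, and nothing is read from this count about the markers.

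Of the promoters with a 3-unit HSE, as in *HSFA7A* and *HSFA7B*, 115 belonged to tested genes. At 4 h in Col 49 of these 115 genes rose (42.6%), against 766 of 3874 genes with a 2-unit match only (19.8%), as in *HSFA4A* and *HSFA8*, and 2750 of 17118 genes with neither (16.1%). At 28 h the shares were 16.5%, 5.47% and 4.47%, and at 52 h 6.96%, 2.84% and 1.97%. *HSFA6B* rose at 4 h without any match in its window, which covers only 250 bases before to 50 bases after the start. Whether HSEs have a part in the changes of these genes was not tested.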

How the data were processed

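Whole-seedling RNA from 48 libraries was sequenced as paired reads, and per the labels and the methods the authors mapped reads to TAIR10 with STAR 2.5.1a and deposited raw counts of read pairs per gene. Which strand column of the counts was kept is not given in the sources used here. Entries that name no gene (7.20 to 9.38% of pairs) were left out.

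Protein-coding genes were filtered (filterByExpr), scaled by TMM and fitted as 16 groups in edgeR 4.0.16 (R 4.3.3; quasi-likelihood test, 32 residual degrees of freedom), with Benjamini-Hochberg adjustment over all 21107 genes in each of 49 contrasts. Genes after ACC and between times were called at an absolute log2 fold change above 1 and adjusted p below 0.05, other contrasts at adjusted p below 0.05. The procedure was tested on simulated data. DESeq2 1.42.0, scaling, filters, thresholds, a replicate block and left-out libraries were run as alternatives. At 4 h, library totals in place of TMM moved the median log2 fold change of all genes against no HS to −0.25, −0.24, −0.20 and −0.25 in the double mutant, *hsfa2*, *hsfa3-1* and Col, and the share of calls that were higher to 32.7%, 33.0%, 35.4% and 35.3%, from 43.4%, 44.0%, 43.2% and 46.0% with TMM.

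All members are named by locus. From each list at most 3 called genes with the largest change are named, and for members whose group means span at least 2 (log2), the 3 genes with the most similar group means. The set of members and the lists were proposed with earlier results of these data known, although the rule for members uses no measured value. Sequences and gene models came from RefSeq TAIR10.1.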

Additional observations from a re-analysis of the deposited data

Results flagged for a closer look

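The change of *HSFA4A* at 4 h differed between genotypes: that in the *hsfa2 hsfa3-1* double mutant minus that in Col was −1.74 on the log2 scale (edgeR adjusted p = 0.023). Libraries of the double mutant at 4 h lay between 4.77 and 6.33 CPM, against 16.7 to 18.4 CPM in Col. The call was lost without replicate 1 (edgeR adjusted p = 0.054) and without replicate 3 (edgeR adjusted p = 0.70).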

How the results depend on the processing

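The main fit gave 392 values, 8 members in 49 contrasts, and none reversed while called under any alternative that gave a value. With only the compared groups in the fit, values were missing where a member had no estimate. The alternative with no minimum fold change covered only the contrasts that had such a threshold. DESeq2, DESeq2 size factors in edgeR, a filter of 1 CPM in 6 libraries and the use of all genes left all 392 on their side of the threshold. Members called after ACC at 4 h kept their number, 4, 4, 4 and 5 in the double mutant, *hsfa2*, *hsfa3-1* and Col, under all alternatives to within 1.5 times.

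Later times depended on single replicates. Leaving out a replicate in turn gave 0 to 3 members higher at 28 h in *hsfa3-1* and 0 to 1 in Col, at 52 h 0 to 2 in the double mutant, *hsfa2*, *hsfa3-1* and Col each, and 0 to 1 lower after ACC. It gave 0 to 1 members lower than Col at 4 h in each mutant, 0 to 1 with a lower change than Col in the double mutant, and 3 to 5 lower at 28 h than at 4 h in Col. Without the *hsfa3-1* replicate 2 library without HS, 1 member each was higher at 28 h in *hsfa2* and in *hsfa3-1*, 1 at 52 h in *hsfa3-1*, and 2 changed between 28 h and 52 h. Leaving out replicate 2 without HS of *hsfa2* as well gave the same numbers and 1 higher at 52 h in *hsfa2*. Both alternatives were chosen after seeing the data.

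With only the compared groups in the fit, 0 members were called at 52 h in the double mutant and 0 in *hsfa3-1*, 2 were higher than Col at 4 h (*HSFA6B* and *HSFA8* in the double mutant) and 1 had a lower change in *hsfa2*. Library totals gave 1 member higher than Col at 4 h (*HSFA7A* in *hsfa2*) and 3 lower at 28 h than at 4 h in Col. At adjusted p below 0.01, counts were 0 at 52 h in the double mutant, 1 in *hsfa2*, 0 lower than Col in *hsfa3-1* and 0 with a lower change in the double mutant. With no minimum fold change, 1 was higher at 28 h in *hsfa2*, 1 in *hsfa3-1* and 2 in Col, 2 at 52 h in the double mutant, and 1 lower after ACC. The shares of all tested genes called under each alternative are not given here. A changed count of members therefore cannot be set against a change over all genes. The causes were not tested, beyond fewer samples in each left-out fit.

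Libraries with the same replicate number tended to vary together: 42 of 48 libraries correlated best with their own number. Same-numbered deviations correlated above 0.1 in all 3 pairs for 20 of 40 compared group pairs. The main fit did not use the replicate number, so it does not take this shared variation into account. The replicate block added 1 call, *HSFA4A*, to the lower change in *hsfa2* (adjusted p = 0.022) and 1 in *hsfa3-1* (adjusted p = 0.025), and changed no other call. For *HSFA7B* without HS and *HSFA9*, counts near 0 limit precision.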
